A study of Mus musculus with 8 samples.

Results

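The 10 genes described here encode laminin chains that are widely found in basement membranes and the proteins that link laminin to the rest of that sheet. They are the laminin alpha chain genes *Lama2*, *Lama4* and *Lama5*, the beta chain genes *Lamb1* and *Lamb2*, the gamma chain gene *Lamc1*, the nidogens *Nid1* and *Nid2*, and the heparan sulfate proteoglycans *Hspg2* (perlecan) and *Agrn* (agrin). They were taken by symbol from the 50600 genes of the count table, and 10 of 10 were found. The rule used their symbols alone, but the genes were chosen with earlier results of these data known. RNA-seq was performed on 2 mouse cell lines in culture. NF1-MET was derived from a malignant peripheral nerve sheath tumor (MPNST) of a mouse with the genotype *Nf1* fl/ko, lox-stop-lox MET tg/+ and a creERT transgene (tg/+) that places the inducible Cre in the Schwann lineage, and the study describes *Met* as amplified and *Cdkn2a* as spontaneously deleted. NF1-MET;sgP53, the edited line, was made from NF1-MET with CRISPR-Cas9 and a guide against *Trp53*, so it carries the same alleles, and the labels call the 2 genotypes WT and *Trp53* KO. Each line was grown for 24 h with DMSO as vehicle or with 100 nM capmatinib, an inhibitor of the MET kinase, with 2 replicate libraries in each of the 4 groups. Each genotype is 1 line, so the loss of *Trp53* and any other difference between the lines cannot be told apart. The labels do not say whether the replicates were separate cultures on separate days. The p-values cover no spread beyond these libraries, and each gene's variance estimate also borrows from the other genes tested.

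Laminins are cross-shaped trimers of an alpha, a beta and a gamma chain, and the beta and gamma chains need an alpha chain to be secreted. On the cell surface, integrins and dystroglycan bind the end of the alpha chain. Nidogen bridges the gamma chain to the collagen IV network, with perlecan and agrin as further binding partners. Schwann cells surround themselves with a basal lamina in which trimers with the alpha 2 and alpha 4 chains, the beta 1 chain and the gamma 1 chain are prominent, and loss of the alpha 2 chain causes a peripheral neuropathy with muscular dystrophy.

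The libraries held between 30116810 and 42781371 counts, of which the 10 genes took 0.337% to 0.479%. *Trp53*, the targeted gene, was at 182 and 193 CPM (counts relative to library size, scaled by TMM factors over the 8 libraries) in vehicle-treated NF1-MET cells and at 97.5 and 100.1 CPM in vehicle-treated NF1-MET;sgP53 cells, so its RNA was lower in the edited line but not absent. Defining Schwann lineage markers were scarce, since 2 of 10 had a mean over 1 CPM and *Sox10* did not exceed 0.176 CPM in any library, and the summed level of the list was 21.4 to 24.0 CPM in vehicle and 6.94 to 7.75 CPM in capmatinib. Of 5 fibroblast and pericyte markers, 4 had a mean over 1 CPM and *Lum* was at or near 0. Their summed level was 3009 to 3979 CPM in vehicle and 15989 to 16297 CPM in capmatinib, mostly from *Col1a1*. The list did not move as one, since *Pdgfrb* was at 178 to 238 CPM in vehicle and 444 to 474 CPM in capmatinib, while *Pdgfra* was at 417 to 449 CPM in vehicle and 324 to 362 CPM in capmatinib, and *Dcn*, at most at 1.63 CPM, was also lower with capmatinib within each line. No endothelial or epithelial marker (0 of 5 each) and 1 of 5 immune markers (*Cd68*) reached that mean. The part of these markers' shifts in the results that follow was not tested, and in bulk RNA fewer cells of a type and less RNA per cell cannot be told apart.

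The 10 genes differed widely in level. Per kilobase of exon (the union of a gene's annotated exons), vehicle-treated NF1-MET cells held most RNA of *Lamb1* (75.9 ± 0.461 CPM per kb, mean ± SD, n = 2, as for all group means below), then *Nid1* (74.7 ± 0.163), *Hspg2* (68.2 ± 0.672) and *Lamc1* (66.6 ± 1.899), and these last neighbours, *Hspg2* and *Lamc1*, overlapped between libraries. *Lama5* followed at 27.5 ± 0.234 CPM per kb, then *Lamb2* at 8.94 ± 0.251, *Agrn* at 6.56 ± 0.202, *Lama4* at 5.62 ± 0.303 and *Nid2* at 2.14 ± 0.0667. *Lama2* was last at 0.0841 ± 0.00918 CPM per kb, 25.4-fold below *Nid2*. After capmatinib, *Hspg2* held the first place in NF1-MET (149.96 ± 10.7 CPM per kb) and in the edited line (127.9 ± 4.81), while *Lamb1* stood behind *Hspg2*, *Nid1* and *Lamc1* in both lines. In NF1-MET;sgP53 with capmatinib, *Lamc1* and *Lamb1* overlapped between libraries (68.1 ± 1.86 and 67.8 ± 0.636 CPM per kb). With the longest transcript as length, several ranks changed. In vehicle-treated NF1-MET, *Lamc1* then lay above *Hspg2*, and *Lama4* above *Lamb2* and *Agrn*. After capmatinib, *Nid1* (137.0 ± 1.41 CPM per kb) lay above *Hspg2* (129.0 ± 4.85) in NF1-MET;sgP53, and *Lamb1* lay above *Lamc1* in both lines, at 112.4 ± 2.42 against 76.2 ± 0.329 CPM per kb in NF1-MET and 116.3 ± 1.09 against 73.9 ± 2.02 in the edited line. *Lama2* was last of the 10 in all 4 groups with either length.

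**Figure D1:**
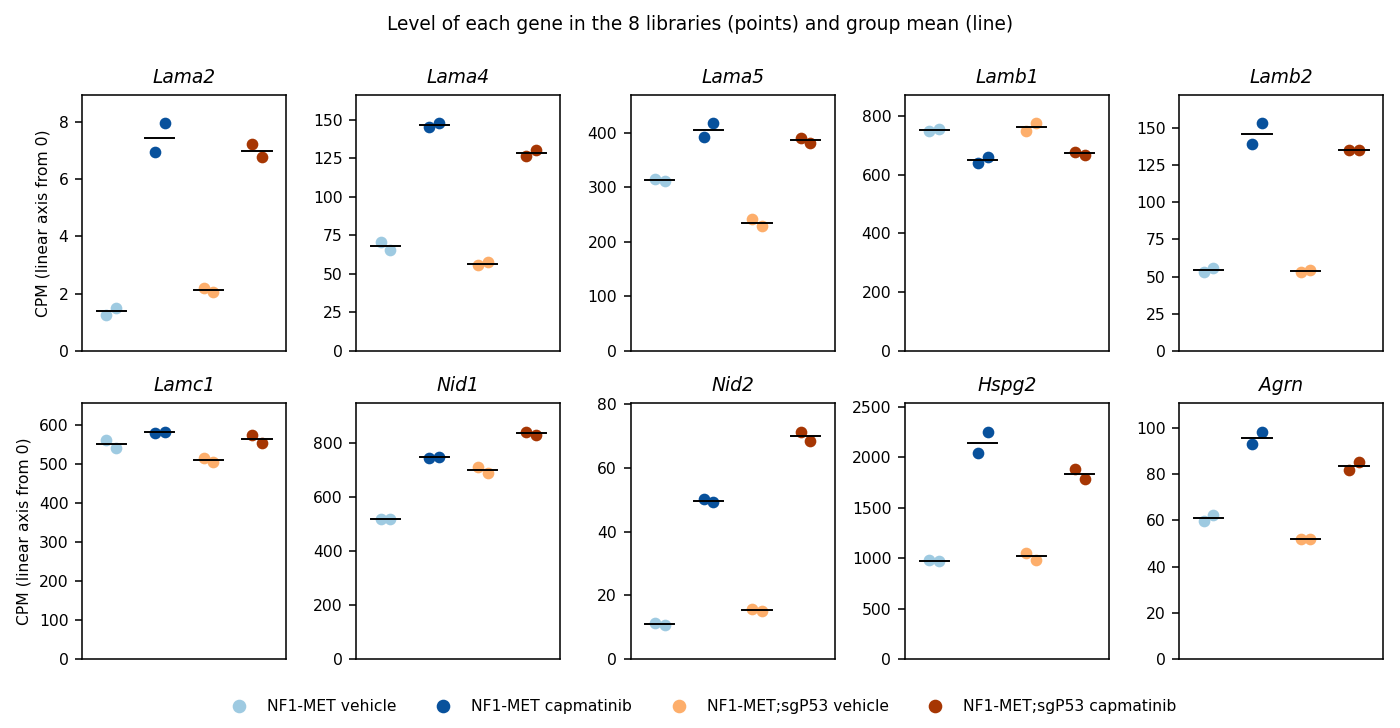
Level of each of the 10 genes in CPM (y axis, linear and starting at 0, own scale per gene) in the 8 libraries, with a line at the mean of the 2 replicates of a group. Points of vehicle and capmatinib do not overlap within a line for any of the 10 genes, and *Lamb1* is the gene with the lower points in capmatinib.

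The first question was whether inhibition of MET changed the RNA of these genes. With capmatinib, 9 of the 10 genes rose and *Lamb1* fell in both lines, except that the small change of *Lamc1* in NF1-MET turned its direction with another scaling. The rises in NF1-MET reached 5.37-fold for *Lama2*, 4.44-fold for *Nid2* and 2.67-fold for *Lamb2*, while *Lamc1* was 4.28% higher. All 10 passed edgeR's quasi-likelihood F-test (Benjamini-Hochberg adjusted over every tested gene, threshold 0.05) in each line. Capmatinib changed much of the transcriptome. In NF1-MET 35.5% of 14496 tested genes were called higher and 34.7% lower, and in the edited line 34.2% and 33.4% of 14497. The median log2 fold change of the 10 genes was 0.87 in NF1-MET and 0.78 in the edited line, beside 0.0020 and 0.0049 over all genes tested. In NF1-MET, 5 of the 10 more than doubled, beside 11.5% of all genes, and in the edited line 4 did, beside 10.4%. These contrasts describe the 10 genes, which were chosen with earlier results known, and do not test them as a set. With library totals in place of TMM factors the median of all genes moved to -0.18 in NF1-MET and -0.12 in the edited line, 3508 genes were called higher and 6381 lower in NF1-MET (5140 and 5029 with TMM factors) and 3260 and 4933 in the edited line (4963 and 4841), and of the 10 genes 8 were called higher and 2 lower in NF1-MET and 7 and 1 in the edited line.

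**Figure D2:**
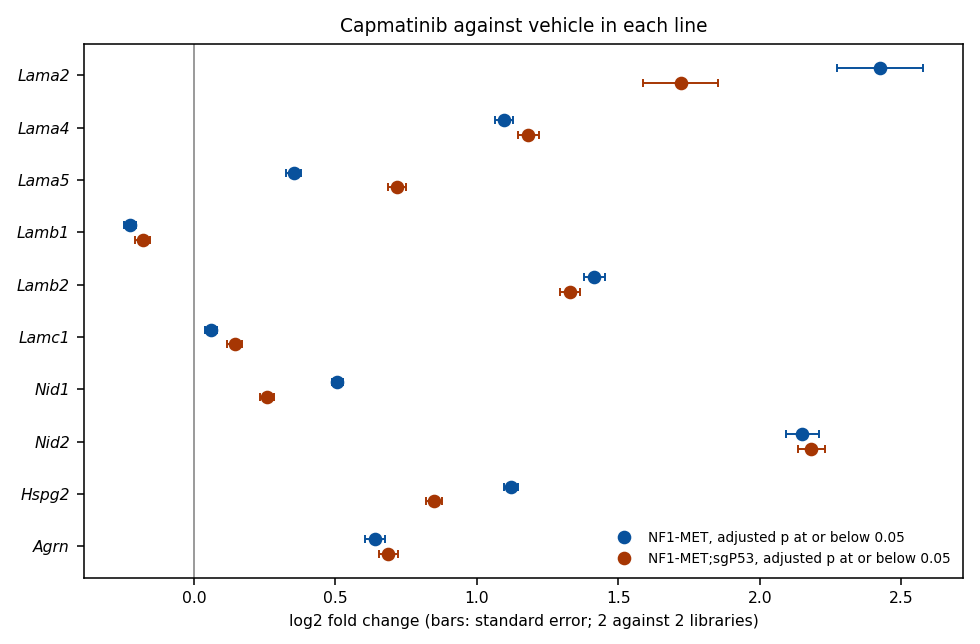
Log2 fold change of capmatinib against vehicle (x axis) with its standard error for each gene in NF1-MET (blue) and NF1-MET;sgP53 (brown). *Lamb1* lies left of 0 in both lines, *Lamc1* close to 0, and *Lama2* and *Nid2* farthest to the right.

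The alpha chains carry the receptor-binding end of the trimer and rose to different degrees. *Lama2* (chr10:26980036-27619758, minus strand, 65 exons in its longest transcript, coordinates of GENCODE M21 on GRCm38, that is mm10, here and for the other genes) encodes the alpha 2 chain, which binds dystroglycan and is the main alpha chain of muscle and Schwann cells. It had 46 and 59 counts in vehicle-treated NF1-MET (1.27 and 1.48 CPM) and 192 and 305 counts in capmatinib (6.94 and 7.94 CPM). In NF1-MET;sgP53 it had 75 and 88 counts in vehicle (2.18 and 2.06 CPM) and 254 and 245 in capmatinib (7.21 and 6.75 CPM). All 4 capmatinib libraries were above all 4 vehicle libraries, and the log2 fold change was 2.42 (SE 0.15, adjusted p = 2.19e-15) in NF1-MET and 1.72 (SE 0.13, adjusted p = 1.09e-10) in the edited line. These low counts make *Lama2* the least precise of the 10.

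The stretch before the RefSeq start of *Lama2* is shown because this gene had the largest rise in NF1-MET. RefSeq (GRCm38.p6) gives promoters for 7 of the 10 genes, with 2 starts for *Agrn*, and none is listed for *Lama4*, *Lamc1* and *Nid2*. Letters in capitals are a CArG box, the motif of serum response factor, which lies 39 to 30 bases before the start and which 1.47% of the 32851 promoters in the RefSeq table hold in their 250 bases before the start, on either strand. This start is that of a GENCODE transcript annotated as a retained intron, not of the longest coding transcript.
*Lama2* (GRCm38.p6, chr10:27616943-27617192, minus strand): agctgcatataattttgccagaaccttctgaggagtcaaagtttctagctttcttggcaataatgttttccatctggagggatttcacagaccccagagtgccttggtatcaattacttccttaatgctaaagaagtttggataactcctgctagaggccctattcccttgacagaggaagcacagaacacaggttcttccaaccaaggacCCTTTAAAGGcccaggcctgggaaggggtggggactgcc

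*Lama4* (chr10:38965515-39110188, plus strand, 38 exons) encodes the alpha 4 chain, a short chain without the arm that joins trimers to each other. Vehicle libraries were at 70.4 and 65.2 CPM in NF1-MET and 55.5 and 57.9 CPM in the edited line. With capmatinib they reached 145.2 and 147.8 CPM and 126.8 and 130.5 CPM, respectively. The rise was 2.14-fold in NF1-MET (log2 1.10, SE 0.03) and 2.27-fold in the edited line (log2 1.18, SE 0.04), more than the spread between replicates in both. *Lama5* (chr2:180176373-180225859, minus strand, 79 exons) encodes the long alpha 5 chain of many epithelial and vascular basement membranes and was the most abundant alpha chain RNA. It was at 315.5 and 311.8 CPM in vehicle and 392 and 417 CPM in capmatinib in NF1-MET. In NF1-MET;sgP53 it was at 241 and 229 CPM in vehicle and 391 and 381 CPM in capmatinib. The vehicle libraries of the edited line were thus lowest, and the rise was 1.28-fold in NF1-MET (log2 0.35, SE 0.03, adjusted p = 6.73e-14) and 1.64-fold in NF1-MET;sgP53 (log2 0.72, SE 0.03, adjusted p = 6.35e-15).

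Among the 3 alpha chain RNAs per kb, *Lama5* held 82.8% ± 0.611 in vehicle and 73.8% ± 0.541 in capmatinib in NF1-MET, and 81.0% ± 0.981 and 75.3% ± 0.652 in the edited line. The share of *Lama4* went from 16.9% ± 0.643 to 25.2% ± 0.597 in NF1-MET and from 18.5% ± 0.990 to 23.7% ± 0.687 in the edited line. *Lama2* remained under 1% of alpha chain RNA in every group (0.945% ± 0.0559 in NF1-MET and 0.949% ± 0.0356 in the edited line with capmatinib). These shares depend on the length used. With the longest transcript in place of the exon union, the share of *Lama5* was 70.8% in vehicle and 58.7% in capmatinib in NF1-MET, and that of *Lama2* was 1.28% and 1.30% with capmatinib in the 2 lines. Counts of *Lama4* per 100 counts of *Lama5*, which need neither scaling nor length, were 22.3 and 20.9 in vehicle and 37.0 and 35.4 in capmatinib in NF1-MET. In NF1-MET;sgP53 they were 23.0 and 25.3 in vehicle and 32.5 and 34.2 in capmatinib, with no overlap between treatments in either line.

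The 2 beta chains moved in opposite directions. *Lamb1* (chr12:31265234-31329644, plus strand, 33 exons) encodes the beta 1 chain, the common beta chain of most tissues. In NF1-MET it was at 749 and 756 CPM in vehicle and 640.2 and 660.0 CPM in capmatinib. The edited line held 750.4 and 775 CPM in vehicle and 677 and 668 CPM in capmatinib. Every capmatinib library was below every vehicle library, and expression was 1.17-fold lower in NF1-MET (log2 -0.23, SE 0.02, adjusted p = 2.97e-11) and 1.13-fold lower in the edited line (log2 -0.18, SE 0.03, adjusted p = 1.6e-06). *Lamb2* (chr9:108479736-108490530, plus strand, 33 exons) encodes the beta 2 chain, known from the neuromuscular junction, the glomerulus and vessels. It was at 53.3 and 55.4 CPM in vehicle and 139.4 and 153 CPM in capmatinib in NF1-MET. The corresponding NF1-MET;sgP53 libraries were at 53.2 and 54.5 CPM in vehicle and 135.4 and 135.3 CPM in capmatinib. Vehicle libraries of both lines lay between 53.2 and 55.4 CPM, below every capmatinib library, and the rise was 2.67-fold in NF1-MET (log2 1.42, SE 0.04, adjusted p = 8.89e-26) and 2.51-fold in the edited line (log2 1.33, SE 0.04, adjusted p = 8.1e-19).

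For every 100 counts of *Lamb1* there were 7.11 and 7.33 counts of *Lamb2* in vehicle and 21.8 and 23.2 in capmatinib in NF1-MET. The same ratio was 7.09 and 7.02 in vehicle and 19.98 and 20.3 in capmatinib in NF1-MET;sgP53. The ratio was therefore 3.11-fold and 2.85-fold higher with capmatinib, free of any choice of scaling. Per kb, *Lamb2* made up 10.5% ± 0.207 of beta chain RNA in vehicle and 26.8% ± 0.890 in capmatinib in NF1-MET, and 10.3% ± 0.0588 and 24.7% ± 0.174 in the edited line, so *Lamb1* was the larger part in every group. With the longest transcript as length the share of *Lamb2* was 6.91% and 18.8% in NF1-MET and 6.76% and 17.1% in the edited line.

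**Figure D3:**
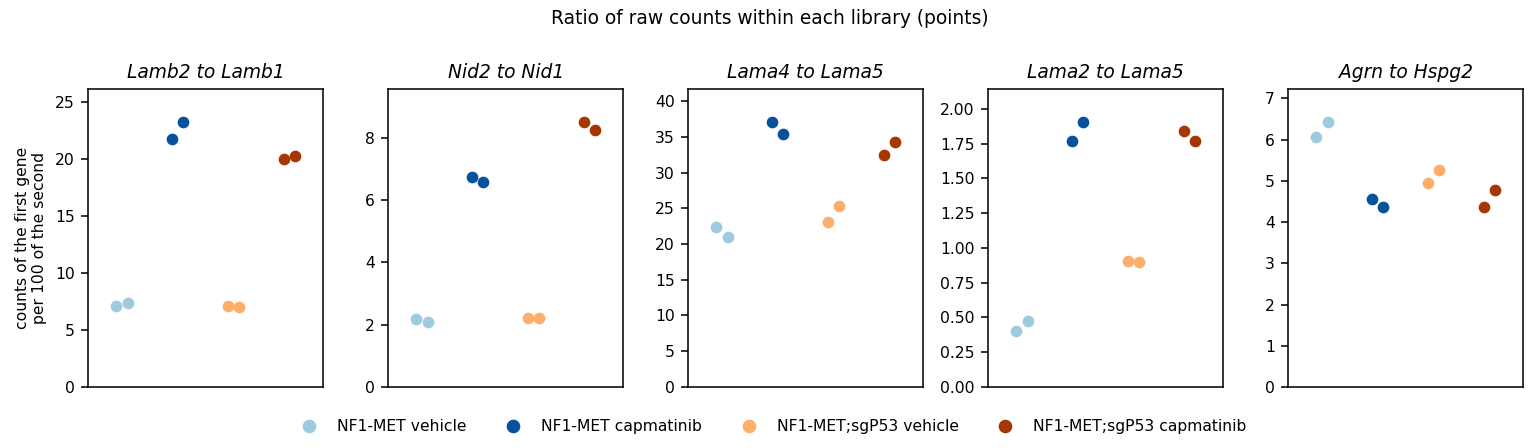
Counts of the first gene per 100 counts of the second (y axis, linear from 0) in each of the 8 libraries for 5 pairs. *Lamb2* to *Lamb1* is near 7 in the 4 vehicle libraries and between 19.98 and 23.2 in the 4 capmatinib libraries, and *Agrn* to *Hspg2* is the pair whose ratio is lower with capmatinib.

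The sequences before the RefSeq starts of the 2 beta chain genes are shown because the genes moved in opposite directions. Capitals mark the GC box GGGCGG, the motif of the Sp family, and the CCAAT box, on either strand, and bases that GENCODE places in an exon are left out.
*Lamb1* (GRCm38.p6, chr12:31265043-31265233, plus strand): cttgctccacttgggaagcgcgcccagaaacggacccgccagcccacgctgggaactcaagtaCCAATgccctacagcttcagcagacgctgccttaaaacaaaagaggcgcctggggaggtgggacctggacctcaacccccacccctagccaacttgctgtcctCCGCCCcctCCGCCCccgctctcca
*Lamb2* (GRCm38.p6, chr9:108479612-108479735, plus strand): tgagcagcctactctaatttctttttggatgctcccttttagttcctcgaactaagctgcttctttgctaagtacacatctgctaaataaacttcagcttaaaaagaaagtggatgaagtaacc
The 250 bases before the start of *Lamb1* were 62.0% G or C, with 2 GC boxes and 1 CCAAT box, and those of *Lamb2* were 43.6% G or C, with a match to none of the 7 motifs searched. GC boxes were found in 32.7% and CCAAT boxes in 33.8% of all promoters of that length. The other motifs searched on both strands were AP-1 (TGANTCA), TEAD (GGAATG), the TATA box (TATAAA), the E-box CACGTG and the CArG box, and no match of 1 motif overlapped that of another. Neither AP-1, TATA box nor E-box was found before any start of the 7 genes, beside 6.75%, 12.4% and 6.02% of all promoters.

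*Lamc1* (chr1:153218922-153332786, minus strand, 28 exons) encodes the gamma 1 chain, shared by nearly all of these trimers and the chain that nidogen binds. It was at 562 and 539.9 CPM in vehicle and 579 and 583 CPM in capmatinib in NF1-MET. NF1-MET;sgP53 libraries were at 515 and 505 CPM in vehicle and 574 and 552 CPM in capmatinib. Its changes were the smallest of the 10 genes in size, 1.04-fold in NF1-MET (log2 0.06, SE 0.02, adjusted p = 0.0176) and 1.10-fold in the edited line (log2 0.14, SE 0.03, adjusted p = 9.06e-05). The first turned to a log2 fold change of -0.12 with library totals (adjusted p = 0.0444) and lost its call without vehicle replicate 2 (0.05, adjusted p = 0.208) or without capmatinib replicate 2 of NF1-MET (0.07, adjusted p = 0.065), and the second lost it with library totals (0.02, adjusted p = 0.889), so no direction is drawn for *Lamc1* in NF1-MET. Summed alpha chain RNA per kb was 0.495 and 0.504 times that of *Lamc1* in vehicle and 0.670 and 0.700 times in capmatinib in NF1-MET. In NF1-MET;sgP53 it was 0.416 and 0.410 times in vehicle and 0.652 and 0.670 times in capmatinib. Summed beta chain RNA was 1.24 and 1.31 times that of *Lamc1* in vehicle and 1.25 and 1.30 times in capmatinib in NF1-MET. In NF1-MET;sgP53 it was 1.36 and 1.43 times in vehicle and 1.30 and 1.34 times in capmatinib, lower without overlap. With the longest transcript as length it was 1.89 and 1.98 times in vehicle and 1.78 and 1.85 times in capmatinib in NF1-MET. In the edited line it was then 2.06 and 2.17 times in vehicle and 1.87 and 1.93 times in capmatinib. Beta chain RNA relative to *Lamc1* was thus lower with capmatinib by either length in the edited line, while in NF1-MET this depends on the length.

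The nidogens bridge laminin to collagen IV. *Nid1* (chr13:13437551-13512269, plus strand, 20 exons) was at 519 and 518 CPM in vehicle and 745 and 746 CPM in capmatinib in NF1-MET. In the edited line it was at 709 and 687 CPM in vehicle and 841 and 829 CPM in capmatinib. The rise was 1.42-fold (log2 0.51, SE 0.02, adjusted p = 2.96e-20) and 1.20-fold (log2 0.26, SE 0.03, adjusted p = 5.86e-09), the latter lost with library totals (log2 0.14, adjusted p = 0.287). *Nid2* (chr14:19751265-19811787, plus strand, 21 exons), the paralog with lower RNA here, went from 11.3 and 10.8 CPM to 50.1 and 49.2 CPM in NF1-MET. In NF1-MET;sgP53 it went from 15.6 and 15.2 CPM to 71.4 and 68.4 CPM. Vehicle and capmatinib libraries were far apart in both lines, and the rise was 4.44-fold (log2 2.15, SE 0.06, adjusted p = 2.54e-25) and 4.54-fold (log2 2.18, SE 0.05, adjusted p = 1.96e-20). Counts of *Nid2* per 100 counts of *Nid1* were 2.17 and 2.09 in vehicle and 6.73 and 6.59 in capmatinib in NF1-MET, and 2.20 and 2.21 in vehicle and 8.49 and 8.25 in capmatinib in the edited line.

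Exons of *Nid2* overlap those of *Rtraf* on the opposite strand over 437 bases (8.45% of its exon length), and whether counting used strand is not stated. *Rtraf* lay between 62.6 and 68.9 CPM in all 8 libraries, while *Nid2* differed over 4-fold between treatments. *Lama2* overlaps *Gm48084* over 3.86% of its exon length, which had 0 counts in every library, and *Nid1* overlaps *Gm48682* over 2.06%.

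*Hspg2* (chr4:137468769-137570630, plus strand, 97 exons) encodes perlecan, a large proteoglycan that binds growth factors through its heparan sulfate chains. It was the gene of the 10 with the most counts and was at 983 and 969 CPM in vehicle and 2037 and 2254 CPM in capmatinib in NF1-MET. In NF1-MET;sgP53 it was at 1050.2 and 984 CPM in vehicle and 1878 and 1781 CPM in capmatinib. Every capmatinib library was above every vehicle library, and the rise was 2.17-fold (log2 1.12, SE 0.03, adjusted p = 3.61e-27) and 1.80-fold (log2 0.85, SE 0.03, adjusted p = 3.86e-17). The sequence before its RefSeq start, shown for the most abundant RNA after capmatinib, held 5 GC boxes (capitals) and was 70.0% G or C over 250 bases.
*Hspg2* (GRCm38.p6, chr4:137468553-137468768, plus strand): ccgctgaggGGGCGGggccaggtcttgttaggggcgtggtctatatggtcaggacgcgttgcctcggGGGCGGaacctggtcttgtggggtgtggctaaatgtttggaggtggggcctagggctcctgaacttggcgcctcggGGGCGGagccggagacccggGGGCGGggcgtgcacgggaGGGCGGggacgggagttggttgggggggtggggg

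*Agrn* (chr4:156165290-156197488, minus strand, 36 exons) encodes agrin, which binds laminin and dystroglycan and clusters acetylcholine receptors at the neuromuscular junction. It was at 59.6 and 62.2 CPM in vehicle and 93.0 and 98.4 CPM in capmatinib in NF1-MET. The edited line held 52.0 and 51.7 CPM in vehicle and 81.8 and 85.1 CPM in capmatinib. Neither line overlapped between treatments, and the rises were 1.56-fold (log2 0.64, SE 0.04) and 1.61-fold (log2 0.69, SE 0.03). Counts of *Agrn* per 100 counts of *Hspg2* were 6.06 and 6.42 in vehicle and 4.57 and 4.37 in capmatinib in NF1-MET, and 4.95 and 5.26 in vehicle and 4.36 and 4.78 in capmatinib in the edited line.

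The second question was how the *Trp53*-edited line differed from its parent. In vehicle, 7 of the 10 genes differed between lines. *Lama2*, *Nid1* and *Nid2* were higher in NF1-MET;sgP53, and *Lama4*, *Lama5*, *Lamc1* and *Agrn* were lower, while *Lamb1*, *Lamb2* and *Hspg2* did not pass the test. Over all 14484 genes tested, 10.9% were called higher and 12.3% lower. *Nid1* was 1.33-fold (log2 0.41, SE 0.02, adjusted p = 5.32e-11) and *Nid2* 1.38-fold (log2 0.46, SE 0.07, adjusted p = 8.41e-05) higher in NF1-MET;sgP53. *Lama5* was 1.35-fold lower (log2 -0.44, SE 0.03, adjusted p = 3.19e-10), the largest of the falls, and *Lama4* (log2 -0.27, SE 0.04), *Agrn* (log2 -0.25, SE 0.04) and *Lamc1* (log2 -0.13, SE 0.02) followed. For *Lama2* the log2 difference was 0.60 (SE 0.21, adjusted p = 0.0407). Log2 differences of the uncalled genes were 0.00033 (SE 0.02) for *Lamb1*, -0.03 (SE 0.04) for *Lamb2* and 0.04 (SE 0.03) for *Hspg2*.

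Some of these calls depended on a library or a method. *Lama2* lost its call without vehicle replicate 1 of NF1-MET (adjusted p = 0.127), without vehicle replicate 1 of NF1-MET;sgP53 (adjusted p = 0.0747) and with DESeq2's Wald test (adjusted p = 0.242). *Lamc1* lost it without vehicle replicate 1 of NF1-MET (log2 -0.08, adjusted p = 0.084) and with library totals (adjusted p = 0.559). *Hspg2* gained a call without vehicle replicate 2 of NF1-MET;sgP53 (log2 0.10, adjusted p = 0.046). With library totals, 3 of the 10 genes were called higher and 3 lower, and 1280 and 743 of all genes (1580 and 1775 with TMM factors).

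With capmatinib, 5 of the 10 genes differed between lines. *Nid2* was 1.41-fold (log2 0.50, SE 0.04, adjusted p = 5.51e-08) and *Nid1* 1.12-fold (log2 0.16, SE 0.02, adjusted p = 4.38e-05) higher in NF1-MET;sgP53. *Hspg2* was 1.17-fold lower (log2 -0.23, SE 0.03, adjusted p = 6.45e-05), *Agrn* 1.15-fold lower (log2 -0.20, SE 0.03, adjusted p = 0.00045) and *Lama4* 1.14-fold lower (log2 -0.19, SE 0.03, adjusted p = 0.000619). Of all 14481 genes, 5.94% were called higher and 6.34% lower. *Lama5* had a log2 difference of -0.07 (SE 0.03, adjusted p = 0.175) here, and *Lama2* one of -0.10 (SE 0.10, adjusted p = 0.608). *Lamb1* (0.05, SE 0.02) and *Lamc1* (-0.04, SE 0.03) did not pass either. With library totals *Nid2* was the 1 gene of the 10 still called, and 537 and 129 of all genes were called higher and lower (860 and 918 with TMM factors). *Hspg2* lost its call with DESeq2's Wald test (adjusted p = 0.0682). *Lamb2* (log2 -0.11, SE 0.04, adjusted p = 0.068) passed without capmatinib replicate 1 of NF1-MET (log2 -0.18, adjusted p = 0.0026), with all 8 libraries in 1 model (adjusted p = 0.0364), in that model without any 1 vehicle library (adjusted p = 0.0377 to 0.0446), with the bias-adjusted quasi-likelihood test (adjusted p = 0.0475) and without the low-count filter (adjusted p = 0.00623). In that model it did not pass without capmatinib replicate 2 of NF1-MET or without either capmatinib replicate of NF1-MET;sgP53. *Lama5* passed without capmatinib replicate 1 of NF1-MET (log2 -0.11, adjusted p = 0.0441).

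**Figure D4:**
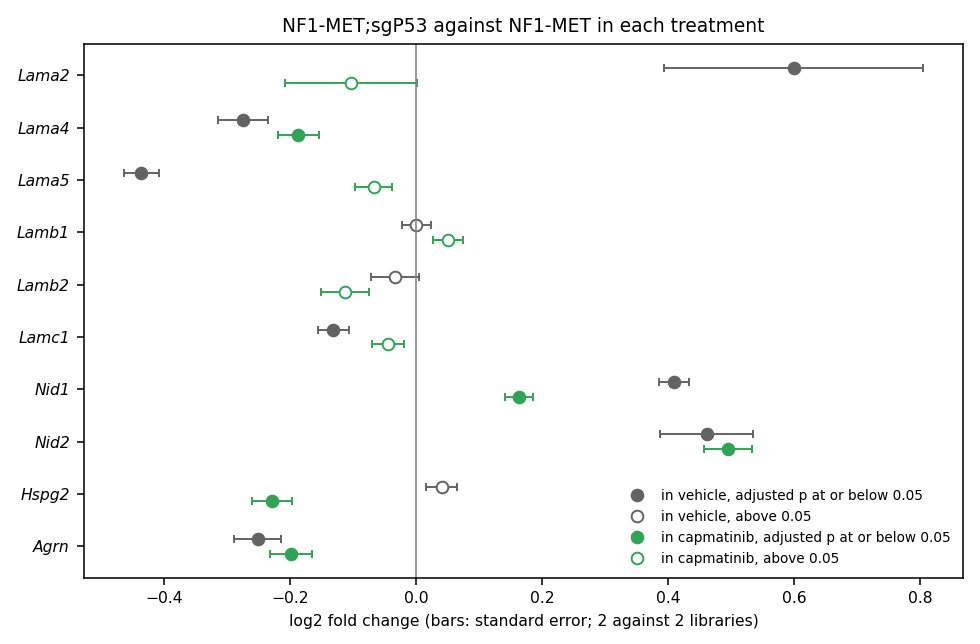
Log2 fold change of NF1-MET;sgP53 against NF1-MET (x axis) with its standard error in vehicle (grey) and in capmatinib (green), filled where the adjusted p is at or below 0.05. *Nid1* and *Nid2* lie right of 0 in both treatments, and *Lama5* lies at -0.44 in vehicle and at -0.07 in capmatinib.

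Whether the response to capmatinib itself differed between the lines was tested as an interaction over the 8 libraries, which the comparisons above share. It passed for 4 of the 10 genes, beside 3.85% of 14497 genes called with a more positive and 5.86% with a more negative response in NF1-MET;sgP53. *Lama5* rose more in NF1-MET;sgP53 (log2 interaction 0.35, SE 0.04, adjusted p = 3.47e-06). *Nid1* (log2 -0.27, SE 0.03, adjusted p = 3.54e-06), *Hspg2* (log2 -0.29, SE 0.05, adjusted p = 0.000135) and *Lama2* (log2 -0.72, SE 0.22, adjusted p = 0.0355) rose less there. The split of all genes moved when *Gm42418*, which took 1.11% to 13.1% of counts, was left out. It was 558 positive and 849 negative, 873 and 612 without that gene, 664 and 730 with DESeq2's size factors, and 192 and 123 with library totals. Under library totals *Lama5* was the 1 gene of the 10 still called. The *Lama2* interaction was lost with DESeq2's Wald test (adjusted p = 0.136) and without any 1 of 6 libraries, namely either vehicle replicate of NF1-MET (adjusted p = 0.16 and 0.0549) or of NF1-MET;sgP53 (0.104 and 0.0687), capmatinib replicate 2 of NF1-MET (0.146) and capmatinib replicate 2 of NF1-MET;sgP53 (0.104). *Lamc1* (log2 0.07, adjusted p = 0.313) gained a call without capmatinib replicate 2 of NF1-MET;sgP53 (log2 0.13, adjusted p = 0.0377).

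Other genes of the basement membrane were read from lists, and each count up to the plot of the lists is of tested genes that passed in capmatinib against vehicle, to be read against the 35.5% of all genes called higher and 34.7% lower in NF1-MET and the 34.2% and 33.4% in the edited line. Of other laminin chains, *Lama1*, *Lamb3* and *Lamc3* had too few counts to be tested in any comparison, and *Lama3* had 6 to 13 counts per library and did not pass. Among 6 tested basement membrane collagens, 4 rose and *Col18a1* fell in each line, with *Col4a5* (log2 1.00 and 1.11, SE 0.03 and 0.04) and *Col4a2* (log2 0.78 and 0.85, SE 0.02 and 0.03), chains of the collagen IV network, as the largest rises. The median log2 fold change of the list was 0.72 in NF1-MET and 0.79 in the edited line, beside 0.0020 and 0.0049 over all genes. Of 11 tested other components, 8 rose and 3 fell in each line. *Loxl2*, a lysyl oxidase that cross-links collagen IV, rose from 5.08 ± 0.338 to 35.2 ± 0.974 CPM in NF1-MET (log2 2.78, SE 0.08) and from 8.64 ± 0.620 to 50.5 ± 3.01 CPM in the edited line (log2 2.54, SE 0.06), and *Fras1* fell in both (log2 -1.28, SE 0.23, and -1.27, SE 0.28).

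Receptors moved both ways, 6 of 11 tested up and 4 down in each line. *Itga1*, the alpha 1 integrin subunit that binds collagen IV and laminin, rose from 6.17 ± 0.317 to 64.1 ± 1.35 CPM in NF1-MET (log2 3.36, SE 0.06) and from 5.50 ± 0.736 to 71.0 ± 5.96 CPM in the edited line (log2 3.68, SE 0.07). *Itga6*, the alpha 6 subunit of classical laminin receptors, fell from 405 ± 3.98 to 81.5 ± 0.517 CPM in NF1-MET (log2 -2.33, SE 0.03) and from 303 ± 8.24 to 71.2 ± 2.63 CPM in the edited line (log2 -2.09, SE 0.04). *Itga2* rose in both lines (log2 2.45, SE 0.25, and 2.17, SE 0.27) from 0.515 ± 0.0899 and 0.490 ± 0.0350 CPM in vehicle. Of the genes that build the laminin-binding glycan on dystroglycan, 4 of 12 were up and 4 down in NF1-MET, near the shares of all genes, and 3 were up and 6 down in the edited line. With library totals the split was 1 up and 8 down in NF1-MET and 2 and 6 in the edited line.

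Of 17 heparan sulfate genes, 9 rose and 6 fell in NF1-MET and 9 rose and 4 fell in the edited line (4 and 4 there with library totals). *Sulf1*, a sulfatase that edits heparan sulfate outside the cell, rose from 11.2 ± 1.15 to 39.0 ± 0.00937 CPM in NF1-MET (log2 1.78, SE 0.06) and from 24.9 ± 0.3999 to 57.4 ± 0.130 CPM in the edited line (log2 1.21, SE 0.04), with an interaction of -0.59 (SE 0.08, adjusted p = 1.35e-05). Of 5 proteases that cut laminin, perlecan or agrin, 4 rose in each line, among them *Tll1* (log2 1.56, SE 0.20, and 2.14, SE 0.22). *Prss12*, which cuts agrin, fell in NF1-MET (log2 -0.22, SE 0.07) and did not pass in the edited line (log2 -0.12, SE 0.08).

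**Figure D5:**
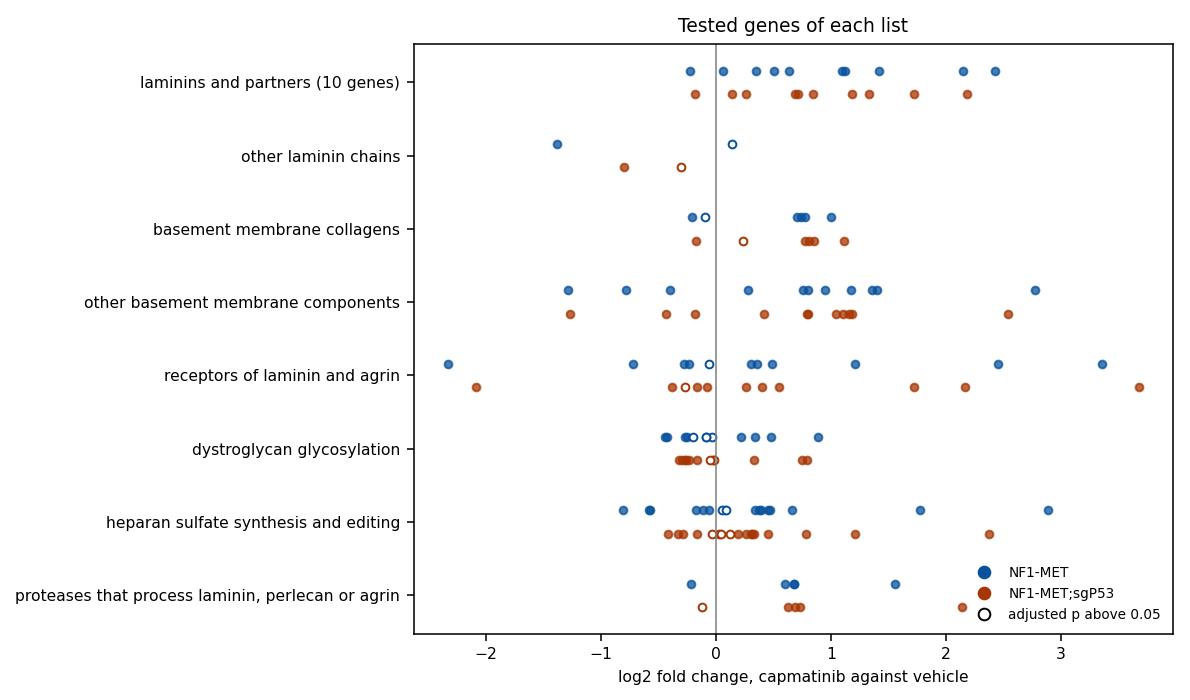
Log2 fold change of capmatinib against vehicle (x axis) for each tested gene of the 10 and of 7 related lists, in NF1-MET (blue) and NF1-MET;sgP53 (brown), open where the adjusted p is above 0.05. The receptor list spans from *Itga6* at -2.33 to *Itga1* at 3.36 in NF1-MET, and the 10 genes lie mostly right of 0.

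Between the lines in vehicle, where 10.9% of all genes were called higher and 12.3% lower, 6 of 6 tested basement membrane collagens were lower in NF1-MET;sgP53, led by *Col18a1* (log2 -0.87, SE 0.02) and *Col15a1* (log2 -0.77, SE 0.12), and 4 of 6 with library totals. Of the receptors 1 was higher and 5 were lower (0 and 2 with library totals), with *Itgb4* (log2 -0.66, SE 0.20) and *Itga6* (log2 -0.44, SE 0.03) as the largest falls. Of the other components 2 were higher and 4 lower (2 and 2 with library totals), with *Loxl2* (log2 0.76, SE 0.10) up and *Smoc2* (log2 -1.39, SE 0.03) down. Of the heparan sulfate genes 6 were higher and 4 lower (4 and 1 with library totals), and *Sulf1* was 2.19-fold higher (log2 1.13, SE 0.07). With capmatinib, where 5.94% of all genes were called higher and 6.34% lower, 5 of the 6 collagens were lower in NF1-MET;sgP53 (1 with library totals), and none was higher.

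The gene whose log2 CPM, centred over the 8 libraries, lay nearest to each member was sought among 9062 other genes whose mean reached 10 CPM in a group. It was *Atf3* for *Lama2* (Euclidean distance 0.271), *Socs2* for *Lama4* (0.0944), *Plxnb1* for *Lama5* (0.124), *Tpr* for *Lamb1* (0.0494), *Zfp622* for *Lamc1* (0.0467), *Sdc4* for *Nid1* (0.0797), *Sema3f* for *Nid2* (0.280), *Mn1* for *Hspg2* (0.164) and *Prnp* for *Agrn* (0.152). The second nearest gene was almost as close for some members, at 0.0472 for *Lamc1* and 0.0508 for *Lamb1*, and farther off for others, at 0.150 for *Lama4*.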

How the data were processed

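RNA-seq of poly(A) RNA was analysed for 8 libraries, 2 in each of 4 groups of line and treatment. The authors deposited raw counts per gene. Per the labels and the study's methods, these counts were made with bcl2fastq 1.9.0, Trim Galore 0.4.2, FastQC 0.11.7 and STAR 2.5.2b on mm10, while the annotation release and the strand setting are not given in the sources used here. A gene was kept when 2 or more libraries had 10 or more counts of it (14497 of 50600), and this filter removed 0.0396% of counts. Each comparison was fitted on its own libraries with edgeR 4.0.16 (R 4.3.3), TMM factors and the legacy quasi-likelihood F-test. Adjusted p-values are Benjamini-Hochberg values over every tested gene, with 0.05 as threshold. The standard error is the log2 fold change divided by the square root of F, so it too rests on a variance estimate shared in part over all tested genes. Single-library fits left out in turn used the other 7 libraries in 1 model, so a lone replicate is assumed to vary like the other groups. Lengths came from GENCODE M21, which held 50376 of the 50600 identifiers. Alternatives were DESeq2 1.42.0, other scalings, filters and models and the replicate block. CPM values divide counts by the scaled library size over 8 libraries. The procedure was tested on simulated counts in which few genes changed, as many up as down, so this does not probe the choice of scaling.

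Replicates of a group differed by more than counting noise (median squared difference 1.54 to 1.86 times that noise). The depth of 30116810 to 42781371 counts makes low-count genes such as *Lama2* the least precise. The 10 genes and the lists were chosen with earlier results of these data known. From each list, at most the 2 largest called rises and 2 largest called falls whose higher group averaged 1 CPM or more could be named in a comparison. *Trp53*, the nearest genes and overlapping genes were named beside them, and *Lama3* and the uncalled *Prss12* value after their values were seen. Some results, among them the nearest gene to *Lamb2*, are not reported here.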

Additional observations from a re-analysis of the deposited data

Results flagged for a closer look

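The response to capmatinib differed between the lines by a test of the interaction itself for 4 of the 10 genes, beside 3.85% of all genes called with a more positive and 5.86% with a more negative response in NF1-MET;sgP53. The log2 interaction (NF1-MET;sgP53 minus NF1-MET) was 0.35 (SE 0.04, edgeR adjusted p = 3.47e-06) for *Lama5*, whose vehicle libraries were at 316 and 312 CPM in NF1-MET and at 241 and 229 CPM in NF1-MET;sgP53. It was -0.27 (SE 0.03, edgeR adjusted p = 3.54e-06) for *Nid1* and -0.29 (SE 0.05, edgeR adjusted p = 0.000135) for *Hspg2*, both lost with library totals. For *Lama2* it was -0.72 (SE 0.22, edgeR adjusted p = 0.0355), on 46 to 88 counts per vehicle library, and this call was lost with library totals (log2 -0.64, adjusted p = 0.21), with DESeq2's Wald test (adjusted p = 0.136) and without any 1 of 6 libraries (adjusted p = 0.0549 to 0.16).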

How the results depend on the processing

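Over 17 alternatives, 787 of 840 values of single genes kept their direction and their side of the threshold, 24 lost a call, 11 gained one and 18 changed sign. Library totals in place of TMM factors left 1 of the 10 genes called between lines in capmatinib (5 with TMM factors) and 1 in the interaction (4 with TMM factors). They also turned the log2 change of *Lamc1* with capmatinib in NF1-MET to -0.12 and the line difference of *Lamb2* in vehicle to 0.023, and in capmatinib those of *Lama2* to 0.015, *Lama5* to 0.048, *Lamb2* to 0.0043 and *Lamc1* to 0.070, none of these last 5 called. The line difference of *Lamb1* in vehicle was -0.000197 with DESeq2's size factors, -3.37e-05 with DESeq2's Wald test and -0.000721 with the stricter filter. The cause was not tested.

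With the longest transcript as length, *Lama5* held 70.8%, 58.7%, 68.2% and 60.6% of alpha chain RNA and *Lamb2* 6.91%, 18.8%, 6.76% and 17.1% of beta chain RNA (NF1-MET vehicle and capmatinib, then NF1-MET;sgP53 vehicle and capmatinib). With 1 library left out, the line difference in vehicle ranged from -0.0057 to 0.042 for *Lamb1* and from -0.042 to 0.015 for *Lamb2*, that of *Lama2* in capmatinib from -0.19 to 0.0079, and the interaction from -0.017 to 0.080 for *Nid2* and from -0.0047 to 0.076 for *Agrn*.

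Over all genes, DESeq2's Wald test called 833 higher and 1100 lower between lines in vehicle (1580 and 1775 in the edgeR test), 436 and 434 in capmatinib (860 and 918), and 433 and 461 in the interaction (558 and 849). Over 8594 genes, deviations of same-numbered replicates correlated at 0.260, 0.368 and 0.389 in the 3 pairs of groups without NF1-MET capmatinib and at -0.133, -0.063 and -0.0095 in the 3 pairs with it. Since this did not hold in every pair and the labels name no shared batch, the number was not taken as a pairing. With the replicate number as a block, 10, 10, 7, 5 and 4 of the 10 genes were called in the 5 comparisons, and 50 of 50 values kept their call. The low counts of *Lama2* limit its precision.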
